A study of Homo sapiens with 8 samples.

Results

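PPP1R1B and 9 other genes that stood higher in Ishikawa cells with dexamethasone alone than with vehicle were followed through 4 treatments. The 10 genes are PPP1R1B, STAC2, GMPR, RASSF4, PRR15L, NXPH3, NGFR, MICALCL, CCDC146 and LMO3, out of 26364 genes in the count table. They were picked by symbol for their rise with dexamethasone in these same libraries, so their level in Dex against DMSO is a description and carries no test here. RNA was sequenced from Ishikawa cells, an established human endometrial adenocarcinoma line that responds to estrogen. Dex cells received 100 nM dexamethasone, a synthetic agonist of the glucocorticoid receptor. Dex_E2 cells received 100 nM dexamethasone and 10 nM 17-beta-estradiol, E2 cells received 10 nM estradiol, and DMSO cells received the vehicle alone. All cells had grown beforehand in charcoal-treated serum, which is poor in steroid hormones. Each treatment had 2 libraries, 8 in all. The sample labels give 8 hr of treatment and the shared protocol gives 1 hr, and the sources used here do not settle which applies.

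The glucocorticoid receptor and estrogen receptor alpha are steroid receptors that move onto DNA when their hormone binds and change the transcription of nearby genes. In endometrial epithelium estrogen drives growth, and in the rodent uterus glucocorticoids oppose part of that response. The 10 genes belong to no single pathway. PPP1R1B encodes DARPP-32, a protein best known in striatal neurons, which inhibits protein phosphatase 1 once protein kinase A has phosphorylated it. STAC2 encodes an adaptor that binds L-type calcium channels. GMPR encodes a reductase that turns GMP into IMP in purine metabolism. RASSF4 belongs to the Ras association domain family. NXPH3 encodes a secreted ligand of alpha-neurexins, and NGFR encodes the p75 receptor for neurotrophins. CCDC146 encodes a coiled-coil protein of centrioles and sperm flagella. LMO3 encodes a LIM-only cofactor of transcription that glucocorticoids induce in human fat cells.

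Library totals were between 17846211 and 22487333 counts, and between 16969 and 17507 genes had a count in a library. All 10 genes passed the filter on low counts, as did 14201 genes of the table. Their counts ranged from 15 to 1414 per library. CPM, used for all levels, are counts scaled to the TMM-adjusted size of a library. The glucocorticoid receptor gene NR3C1 lay at 60.0 and 58.9 CPM in Dex, 62.9 and 64.9 in Dex_E2, 65.5 and 58.3 in E2, and 63.4 and 66.4 CPM in DMSO. The estrogen receptor gene ESR1 lay at 199 and 184 CPM in Dex, 144 and 154 in Dex_E2, 125 and 121 in E2, and 181 and 157 CPM in DMSO. The 10 listed epithelial genes were each above 1 CPM in every treatment, with KRT8 highest. They summed to between 4694 and 5183 CPM in Dex, 4070 and 4289 in Dex_E2, 3602 and 3799 in E2, and 3643 and 4192 CPM in DMSO. Of the 16 neuronal and glial markers STMN2 and NEFL were at 0 in every treatment, and the list, led by MBP and MAP2, summed to between 160 and 182 CPM in Dex, 168 and 171 in Dex_E2, 149 and 157 in E2, and 194 and 196 CPM in DMSO. Leukocyte markers summed to at most 3.09 CPM, endothelial markers to at most 11.7 CPM, most of it ESAM, and fibroblast markers to between 138 and 201 CPM, most of it COL1A1. Of these lists edgeR called the epithelial gene SOX17 and the endothelial gene KDR higher with dexamethasone alone, where DESeq2 called 3 of the epithelial genes. With estradiol alone ESR1, which is also in the epithelial list, was called lower, with a log2 fold change of -0.46. The neuronal gene MAP2 was also called lower there, at -0.83. The part of these genes in the results was not tested. Dex replicate 1 stood apart from Dex replicate 2 in the estrogen target PGR, at 8.91 CPM against 2.47 CPM, and Dex replicate 2 had 1.42% of its counts in the ribosomal RNA gene RNA45S5, against 2.79% to 4.03% in the other libraries. In RNA of whole cultures, fewer cells with a transcript and less transcript per cell cannot be told apart.

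With dexamethasone alone 7 of the 10 genes were called higher and 3 were not, a call being an adjusted p (Benjamini-Hochberg, over all genes tested) below 0.05 in the quasi-likelihood test of edgeR. Of all 14201 genes tested, 0.908% were called higher. In all 10 genes both Dex libraries lay above both DMSO libraries, as they did in 18.5% of all genes tested. These counts follow from how the genes were chosen and say nothing further about them. STAC2 had the highest log2 fold change of the 10, 3.54 ± 0.19 (SE), and ranked 10 among all genes tested, while PPP1R1B at 3.14 ± 0.14 ranked 17. At the other end LMO3 and NGFR, each at 0.76 on the log2 scale, ranked 432 and 435. MICALCL, which lay between them and the rest at 1.47 ± 0.35, was not called either. NGFR and LMO3 are therefore not strongly raised by dexamethasone alone in these libraries, against the description under which the genes were grouped.

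**Figure D1:**
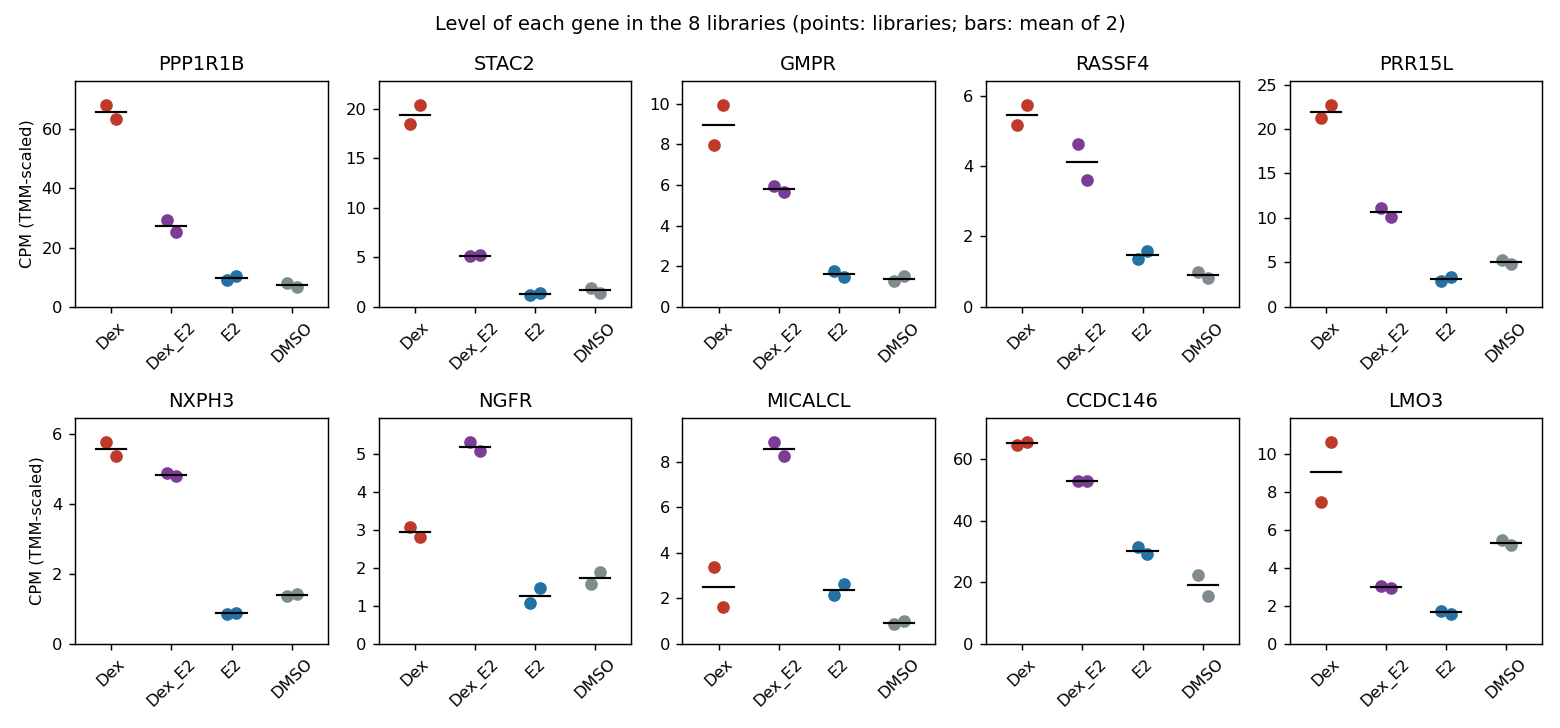
Level of each of the 10 genes in CPM (vertical axis, linear from 0) in the 2 libraries of Dex, Dex_E2, E2 and DMSO (points), with the mean of each treatment as a bar. PPP1R1B, STAC2, GMPR, RASSF4, PRR15L, NXPH3, CCDC146 and LMO3 are highest in Dex, whereas NGFR and MICALCL are highest in Dex_E2.

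The question put to these genes was how far the rise with dexamethasone persists when the cells also receive estradiol. It was read from Dex_E2 against E2, which shares no library with Dex against DMSO. All 8 libraries entered a single fit, however, so the spread behind its p-values also draws on the Dex and DMSO libraries. Here 8 of the 10 genes rose, and CCDC146 and LMO3 did not pass the test. Of all genes tested, 0.239% were called higher in this comparison. In each of the 10 genes both Dex_E2 libraries lay above both E2 libraries, which was so in 18.1% of all genes tested. The median log2 fold change of the 10 was 1.80, beside 0.002 over all genes tested. NXPH3, NGFR, STAC2, GMPR, MICALCL and PRR15L were already known from earlier results of this comparison when the genes were grouped. Their calls, the p-values given for them below and the holding of a call without single libraries are therefore descriptions. They are not independent support. No label says whether the libraries of a treatment are separate cultures, and p-values then reflect only how much these libraries vary, which may be technical. The count of 8 rested on single libraries: it was 3 without E2 replicate 1, 5 without E2 replicate 2, and 6 without either Dex_E2 library. Without either Dex library it was 8.

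**Figure D2:**
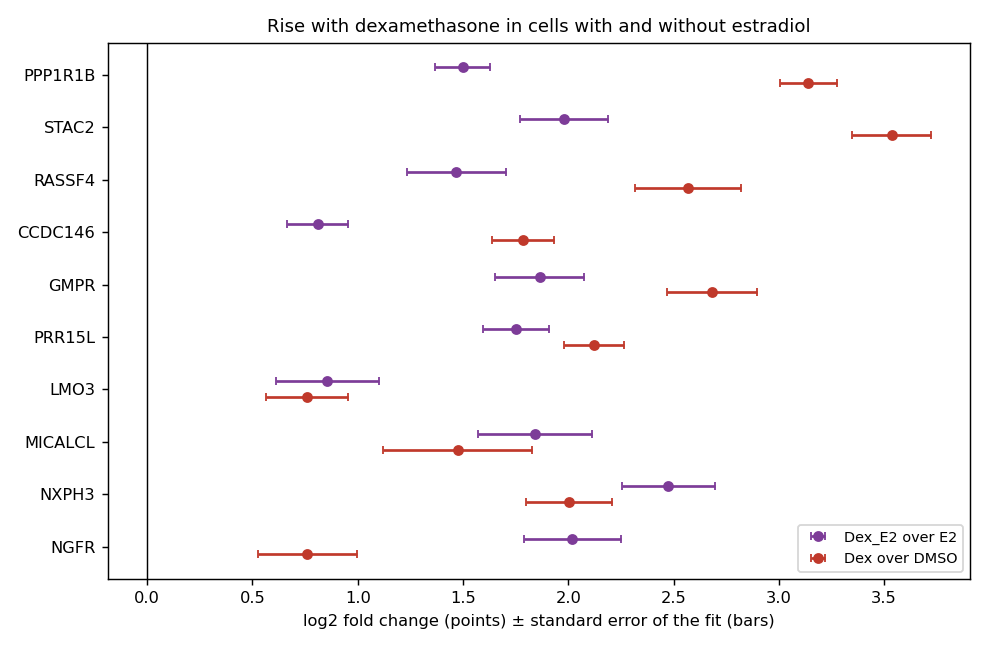
Log2 fold change ± standard error of the fit (horizontal axis) of each gene in Dex_E2 over E2 (purple) and in Dex over DMSO (red), ordered by the difference between these. PPP1R1B at the top has 1.50 with estradiol and 3.14 without it, and NGFR at the bottom has 2.02 and 0.76.

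PPP1R1B had 1414 and 1132 counts in Dex, 663 and 563 in Dex_E2, 160 and 233 in E2, and 155 and 140 counts in DMSO. These are 68.1 and 63.5 CPM in Dex, 29.4 and 25.3 in Dex_E2, 9.01 and 10.3 in E2, and 8.13 and 6.81 CPM in DMSO. The Dex libraries were highest, the Dex_E2 libraries stood between them and the rest, and the libraries of no treatment overlapped those of another. In estradiol-treated cells PPP1R1B rose with dexamethasone by 1.50 ± 0.13 on the log2 scale (adjusted p = 0.00042, edgeR), a call that held without each of the 8 libraries in turn. Its log2 rise with estradiol present was 47.7% of that without it, a difference of -1.64 ± 0.19. Choosing the genes for a high value in Dex leans such a difference downward, so it is given as a description. Estradiol on its own left PPP1R1B at a log2 fold change of 0.38 ± 0.15 against DMSO, which was not called. Among dexamethasone-treated cells its level was lower with estradiol, with a log2 fold change of -1.27 ± 0.12.

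STAC2 had 18.5 and 20.4 CPM in Dex, 5.15 and 5.21 in Dex_E2, 1.18 and 1.41 in E2, and 1.94 and 1.41 CPM in DMSO. In CPM its level in Dex_E2 lay nearer to that of the cells without dexamethasone than to Dex, while on the log2 scale it lay about midway. In estradiol-treated cells STAC2 rose by 1.98 ± 0.21 (adjusted p = 0.00176, edgeR). Without E2 replicate 1, in which it had 21 counts, the adjusted p was 0.06. On the log2 scale 56.0% of the rise was kept with estradiol, and in CPM only 21.9% of the increase was kept, the 2 scales giving different shares. PRR15L, which encodes a proline-rich protein, was also highest in Dex and intermediate in Dex_E2. It had 21.2 and 22.7 CPM in Dex, 11.1 and 10.1 in Dex_E2, 2.93 and 3.36 in E2, and 5.30 and 4.76 CPM in DMSO. The E2 libraries were the lowest, below both DMSO libraries. PRR15L rose by 1.75 ± 0.16 in Dex_E2 over E2 (adjusted p = 0.00042, edgeR), which held without each library in turn. That is 82.5% of its log2 rise without estradiol, while 44.4% of the increase in CPM was kept. The pattern over the 8 libraries was alike in STAC2 and PRR15L, with a Pearson r of 0.984 between their log2 CPM, given as a description of points that share their libraries and treatments.

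GMPR, RASSF4 and CCDC146 kept levels in Dex_E2 nearer to those in Dex. GMPR had 7.99 and 9.93 CPM in Dex, 5.95 and 5.66 in Dex_E2, 1.75 and 1.46 in E2, and 1.26 and 1.51 CPM in DMSO. The E2 and DMSO libraries overlapped, and the Dex_E2 libraries lay below both Dex libraries. GMPR rose by 1.86 ± 0.21 in estradiol-treated cells (adjusted p = 0.00304, edgeR). This call was lost without either E2 library, with an adjusted p of up to 0.109. RASSF4 had 5.15 and 5.72 CPM in Dex, 4.61 and 3.59 in Dex_E2, 1.35 and 1.59 in E2, and 0.997 and 0.827 CPM in DMSO. The counts behind it were 107 and 102 in Dex, 104 and 80 in Dex_E2, 24 and 36 in E2, and 19 and 17 in DMSO. RASSF4 rose by 1.47 ± 0.23 in Dex_E2 over E2 (adjusted p = 0.0279, edgeR), and the call was lost without any of the E2 or Dex_E2 libraries (adjusted p up to 0.32). GMPR kept 69.4% of the log2 rise and 55.4% of the increase in CPM. For RASSF4 the 2 shares were close, at 57.1% and 58.2%.

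CCDC146 had 64.7 and 65.6 CPM in Dex, 53.0 and 52.9 in Dex_E2, 31.4 and 29.1 in E2, and 22.5 and 15.4 CPM in DMSO. Its level was higher in both E2 libraries than in both DMSO libraries, and the DMSO libraries differed most between themselves. The log2 fold change of Dex_E2 over E2 was 0.81 ± 0.14, with an adjusted p of 0.0537 (edgeR), so CCDC146 was not called. It was called without DMSO replicate 1 or DMSO replicate 2, which are in neither group (adjusted p = 0.00183 and 0.00196), and by DESeq2 and limma-voom with all libraries. CCDC146 kept 45.3% of its log2 rise and 49.1% of its increase in CPM. In the annotation the opposite strand holds GSAP, the gene of the gamma-secretase activating protein, which shares 138 exonic bases with CCDC146. GSAP had 9.68 and 11.4 CPM in Dex, 14.9 and 11.8 in Dex_E2, 7.94 and 7.37 in E2, and 3.57 and 4.62 CPM in DMSO. No source used here says whether strand was used in counting, and reads from that shared stretch cannot be told apart.

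Promoters from RefSeq on GRCh38.p14 were matched by symbol for GMPR, RASSF4, CCDC146 and LMO3. For each the 250 bases before the start site are shown. These 4 genes are shown because a promoter was found for them, not because of their levels. NXPH3, whose level in Dex_E2 also lay nearer to Dex, had no promoter to show. LMO3, whose level in Dex_E2 lay below DMSO, kept 112% of its log2 rise with estradiol and 35.4% of its increase in CPM. Its rise was called neither with estradiol nor without it. On the log2 scale GMPR kept 69.4%, RASSF4 57.1% and CCDC146 45.3%. Whether the promoter letters go with the rise kept was not tested. Capitals mark GGGCGG (the GC box) and CCAAT on either strand, motifs that were added after the search for receptor sites described next. The stretches are chr6:16238337-16238586 (+ strand) for GMPR, chr10:44959552-44959801 (+ strand) for RASSF4, chr7:77122365-77122614 (+ strand) for CCDC146 and chr12:16608215-16608464 (− strand) for the most upstream of 5 LMO3 starts.
GMPR: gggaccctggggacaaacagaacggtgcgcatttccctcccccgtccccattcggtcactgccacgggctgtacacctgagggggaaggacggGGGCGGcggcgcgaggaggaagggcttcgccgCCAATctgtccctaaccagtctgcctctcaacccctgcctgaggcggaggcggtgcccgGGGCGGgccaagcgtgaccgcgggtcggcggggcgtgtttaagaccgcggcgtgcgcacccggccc
RASSF4: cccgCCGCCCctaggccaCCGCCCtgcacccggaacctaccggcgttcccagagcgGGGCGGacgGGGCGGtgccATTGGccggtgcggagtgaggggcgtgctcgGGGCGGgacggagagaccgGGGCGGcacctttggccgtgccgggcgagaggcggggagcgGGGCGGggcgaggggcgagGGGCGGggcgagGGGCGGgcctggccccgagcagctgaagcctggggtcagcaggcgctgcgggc
CCDC146: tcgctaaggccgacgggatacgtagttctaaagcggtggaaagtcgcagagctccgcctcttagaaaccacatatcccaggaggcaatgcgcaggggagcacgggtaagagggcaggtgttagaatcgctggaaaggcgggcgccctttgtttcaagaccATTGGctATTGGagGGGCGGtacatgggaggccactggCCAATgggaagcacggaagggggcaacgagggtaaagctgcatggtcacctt
LMO3: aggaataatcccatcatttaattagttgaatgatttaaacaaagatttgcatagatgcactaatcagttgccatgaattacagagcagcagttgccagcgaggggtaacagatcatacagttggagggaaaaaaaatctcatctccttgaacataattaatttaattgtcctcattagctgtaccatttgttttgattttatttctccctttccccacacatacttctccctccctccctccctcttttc
The windows searched reach 50 bases further, past the start site. RASSF4 held 9 GC boxes, GMPR 2 and CCDC146 1, and the LMO3 window shown held 0, its CCAAT match lying past the start site. GC content was 73.7% in GMPR, 77.0% in RASSF4, 57.0% in CCDC146 and 40.0% in the LMO3 window shown, beside a median of 58.7% over all promoters. The other LMO3 windows had a GC content of 46.0%, 48.7%, 46.3% and 52.0%, and the last of these held 1 GC box. Of the 8 windows of the 4 genes, 4 held GGGCGG and 5 held CCAAT, against 45.0% and 34.6% of 35116 promoters. The full glucocorticoid response element, AGAACA and TGTTCT with any 3 bases between, was in 0 of 8 windows and 0.00285% of all promoters, and the half-site AGAACA in 0 of 8 and 14.8%. The estrogen response element, GGTCA and TGACC with any 3 bases between, was in 0 of 8 windows and 0.057% of all, and TATAAA in 0 of 8 and 11.5%. All motifs were searched on both strands, and the half-site lies within the full element. A window without a match says only that these letters are not in it.

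NXPH3 and NGFR had as large a log2 rise with estradiol present as without it, or a larger one. NXPH3 had 5.78 and 5.39 CPM in Dex, 4.88 and 4.80 in Dex_E2, 0.845 and 0.883 in E2, and 1.36 and 1.41 CPM in DMSO. Its E2 libraries, with 15 and 20 counts, lay below both DMSO libraries. NXPH3 had the highest log2 fold change of the 10 in Dex_E2 over E2, 2.48 ± 0.22 (adjusted p = 0.00042, edgeR), and the call held without each library in turn. Its log2 rise with estradiol was 123% of that without it, and in CPM 94.8% of the increase was kept. NGFR had 3.08 and 2.81 CPM in Dex, 5.32 and 5.07 in Dex_E2, 1.07 and 1.46 in E2, and 1.57 and 1.90 CPM in DMSO. Both Dex_E2 libraries were above both Dex libraries. NGFR rose by 2.02 ± 0.23 in Dex_E2 over E2 (adjusted p = 0.00304, edgeR), and without E2 replicate 1, in which it had 19 counts, the adjusted p was 0.0814. Without estradiol its log2 fold change was 0.76 ± 0.24, a difference of 1.26 ± 0.33 in the direction opposite to PPP1R1B. NGFR ranked 16 among all genes tested in Dex_E2 over E2, against 435 in Dex over DMSO. Both NXPH3 and NGFR were known from Dex_E2 over E2 when the genes were grouped. Choosing on that comparison leans their differences upward, so these are given as a description. The annotation places another gene over 22.3% of the exonic bases of NGFR, and its reads cannot be told apart here.

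MICALCL was the other gene with its highest level under both hormones. It had 3.37 and 1.63 CPM in Dex, 8.87 and 8.26 in Dex_E2, 2.14 and 2.61 in E2, and 0.840 and 0.972 CPM in DMSO. The Dex libraries, with 70 and 29 counts, differed most between themselves and spanned both E2 libraries. The Dex library with more MICALCL, replicate 1, was also the one with more PGR, and the part of that difference in the result was not tested. Without Dex replicate 1 the log2 fold change of MICALCL in Dex over DMSO was 0.84, and without Dex replicate 2 it was 1.89 and called. In Dex_E2 over E2 MICALCL rose by 1.84 ± 0.27 (adjusted p = 0.0171, edgeR), a call lost without any of the E2 or Dex_E2 libraries (adjusted p up to 0.301). MICALCL is a locus that newer annotation joins to MICAL2, the gene of an actin-oxidising monooxygenase, so its counts are uncertain beside that gene. MICAL2 itself had 90.0 and 90.1 CPM in Dex, 118 and 117 in Dex_E2, 112 and 104 in E2, and 80.8 and 85.7 CPM in DMSO, and was called neither with dexamethasone alone nor in Dex_E2 over E2.

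LMO3 was the 1 gene of the 10 called lower with estradiol alone. It had 7.46 and 10.7 CPM in Dex, 3.02 and 2.92 in Dex_E2, 1.75 and 1.55 in E2, and 5.46 and 5.20 CPM in DMSO. Both Dex_E2 libraries lay below both DMSO libraries, the only case among the 10, while 19.3% of all genes tested were lower in that way. With estradiol alone the log2 fold change was -1.70 ± 0.23, a call lost without E2 replicate 2, where the value was -1.61. Dexamethasone in estradiol-treated cells gave a log2 fold change of 0.86 ± 0.25, with an adjusted p of 0.404 (edgeR), and without estradiol it gave 0.76 ± 0.20. On the log2 scale the values with and without estradiol were thus close, a difference of 0.09 ± 0.31, while 35.4% of the increase in CPM was kept.

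Estradiol went with lower levels of some of the 10 genes and higher levels of others. These comparisons share the DMSO or the Dex libraries with the one that chose the genes, and are given without p-values. Choosing genes for a high level in Dex and a low level in DMSO leans Dex_E2 over Dex downward and E2 over DMSO upward. For genes known from Dex_E2 over E2 when grouped, NGFR and MICALCL among them, that knowledge leans both the other way. In Dex_E2 over Dex the log2 fold change was -1.91 in STAC2, -1.60 in LMO3, -1.27 in PPP1R1B and -1.04 in PRR15L. It was nearer to 0 in GMPR (-0.62), RASSF4 (-0.40), CCDC146 (-0.30) and NXPH3 (-0.21). NGFR (0.82) and MICALCL (1.76) had positive values, that of MICALCL lying between 1.34 and 2.39 without each library in turn. In E2 over DMSO LMO3 was the 1 gene called, lower, where 0.613% of all genes were called lower and 1.19% higher. The libraries of E2 and DMSO did not overlap in 8 of the 10 genes, 4 higher in E2 and 4 lower. PPP1R1B, RASSF4, MICALCL and CCDC146 were the higher ones. Of all genes tested, 18.3% were higher and 17.9% lower in that way.

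**Figure D3:**
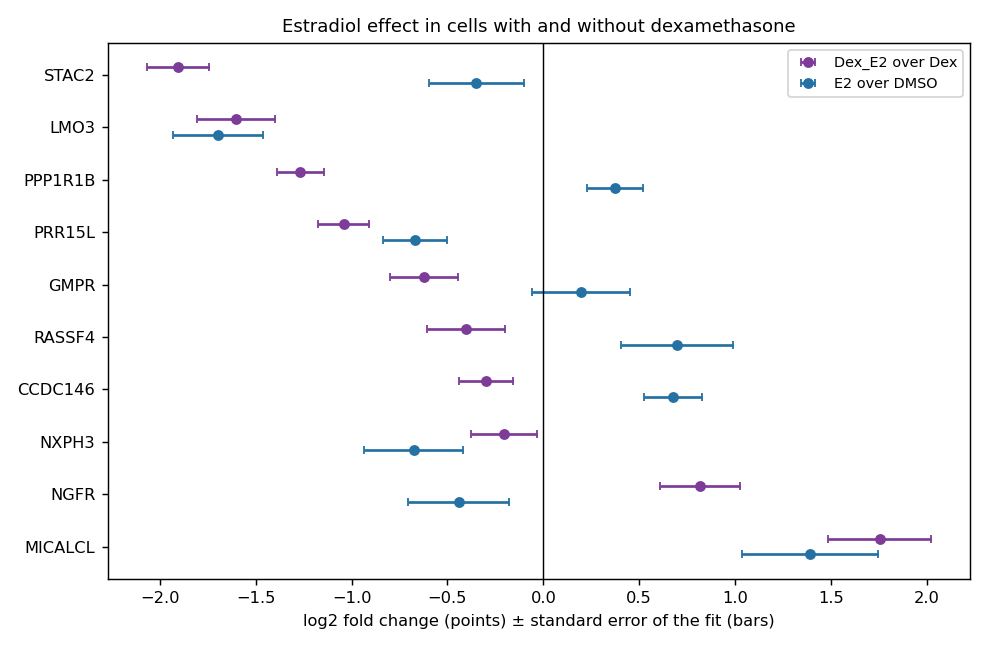
Log2 fold change ± standard error of the fit (horizontal axis) of each gene in Dex_E2 over Dex (purple) and in E2 over DMSO (blue). STAC2, LMO3, PPP1R1B and PRR15L lie below -1 in Dex_E2 over Dex, and of these LMO3 alone lies below -1 in E2 over DMSO.

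Dex_E2 over DMSO rests on the DMSO libraries in which the genes were chosen for low levels, and its values are a description. The log2 fold change was between 1.08 in PRR15L and 3.23 in MICALCL for 9 of the 10 genes, and -0.84 in LMO3. Summed over the 10 genes, their share of all counts was 0.0207% and 0.0206% in Dex, 0.0132% and 0.0124% in Dex_E2, 0.0053% and 0.0054% in E2, and 0.0050% and 0.0039% in DMSO.

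The share of the log2 rise kept with estradiol had a median of 76.0% over the 10 genes, with 45.3% in CCDC146 as the lowest and 266% in NGFR as the highest. The other 122 genes called higher with dexamethasone alone had a median of 45.7% and a range of -51.2% to 147%. The difference was negative in 6 of the 10 genes and in 118 of the 122. These values are set side by side without a test. Genes called in Dex against DMSO were all chosen for a high value there, whereas 3 of the 10 genes were not called. In addition NXPH3, NGFR, STAC2, GMPR, MICALCL and PRR15L were known from Dex_E2 over E2 when grouped. That comparison is the numerator of the share, so the choice leans their shares and the median upward. The 4 genes that kept over 100% were NGFR, MICALCL, NXPH3 and LMO3, 3 of them the genes without a call in Dex against DMSO. Those 3 had the lowest log2 rises without estradiol, by which the share is divided, at 0.76 in NGFR and LMO3 and 1.47 in MICALCL.

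The 10 genes lie on 6 chromosomes, and 5 of them, PPP1R1B, STAC2, PRR15L, NXPH3 and NGFR, lie on chromosome 17. Of the 13827 tested genes with a place in the annotation 6.14% are on that chromosome, as are 12 of 128 genes called higher with dexamethasone alone and 6 of 34 called higher in Dex_E2 over E2. Of the 12, 4 are among the 10 genes themselves, and of the 6, 5 are. In gene order NGFR and NXPH3 are adjacent, with 0 tested genes between them, and 3 tested genes separate STAC2 from PPP1R1B. Those 3, FBXL20, MED1 and CDK12, had log2 fold changes of -0.13, -0.11 and -0.20 with dexamethasone alone. Of 51 tested neighbours of the 10 genes, up to 3 on each side, edgeR called 3 higher with dexamethasone alone. There limma-voom called 3 and DESeq2 called 2. In Dex_E2 over E2 0 were called by edgeR, DESeq2 or limma-voom, while 6 had an unadjusted p under 0.05 in edgeR. Of all genes tested, edgeR called 0.908% higher with dexamethasone alone and 0.239% in Dex_E2 over E2. The 3 neighbours called by edgeR were PNMT, C10orf10 and GSAP.

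**Figure D4:**
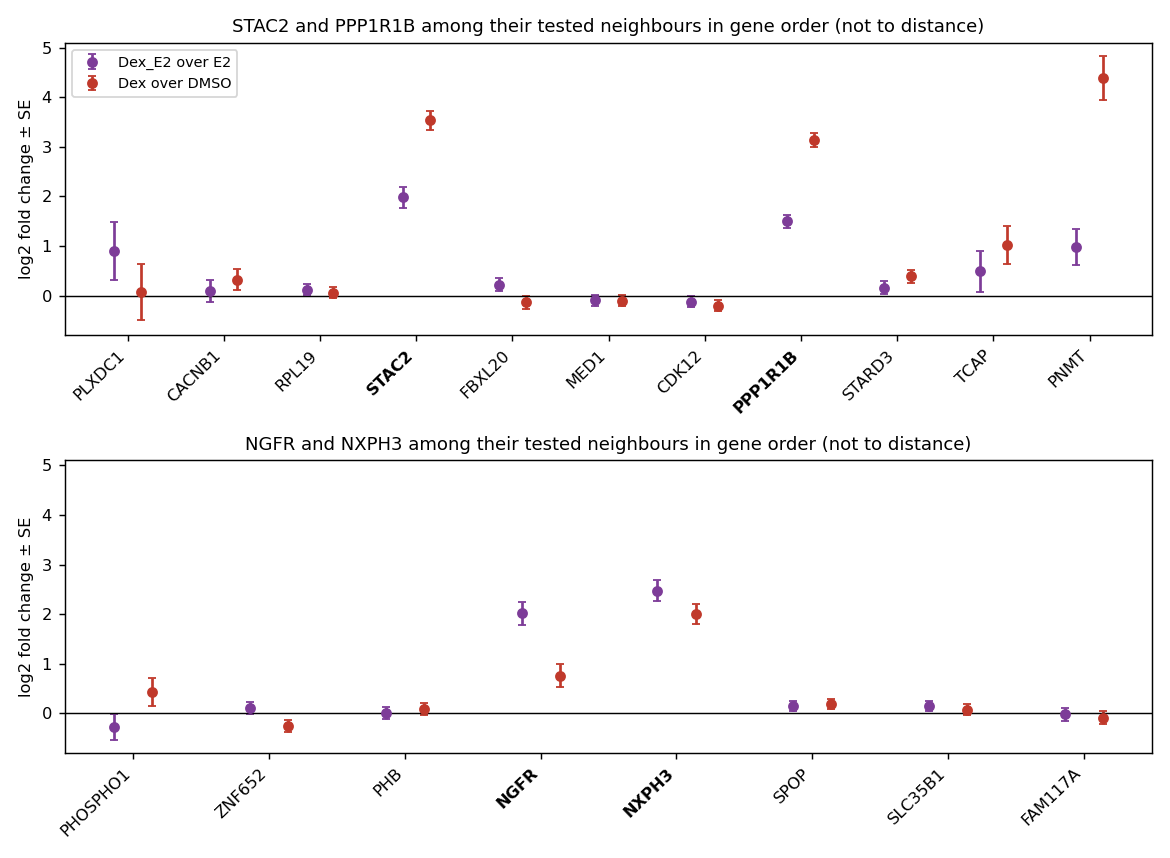
Log2 fold change ± standard error of the fit (vertical axis) of STAC2 and PPP1R1B (top) and of NGFR and NXPH3 (bottom) with up to 3 tested neighbours on each side, in gene order, in Dex_E2 over E2 (purple) and in Dex over DMSO (red). Apart from PNMT and, with wide bars, TCAP and PLXDC1, the genes between and beside the 4 lie between -0.27 and 0.44 in both comparisons. Both of these values belong to PHOSPHO1, and STARD3 has 0.38 ± 0.12 in Dex over DMSO.

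PNMT, the third tested gene after PPP1R1B, encodes the enzyme that makes adrenaline from noradrenaline, which glucocorticoids induce in the adrenal medulla. It had 45 and 41 counts in Dex, 21 and 23 in Dex_E2, 8 and 12 in E2, and 1 and 3 counts in DMSO. Summed and scaled to depth, Dex over DMSO was a ratio of 22.1, with an exact 95% counting interval of 8.32 to 82.9. In Dex_E2 over E2 the ratio was 1.98, with an interval of 1.14 to 3.55, and PNMT was not called. These intervals cover counting error alone. STARD3 and TCAP, which lie between PPP1R1B and PNMT, were not called. C10orf10 lies on the strand opposite to RASSF4 and shares 695 exonic bases with it. It had 15 and 22 counts in Dex, 13 and 13 in Dex_E2, 3 and 5 in E2, and 0 and 3 in DMSO. Its ratio of Dex over DMSO was 12.7, with an interval of 4.01 to 64.2. C10orf10 and RASSF4 both stood highest in Dex and Dex_E2 and, with the strand setting unknown, reads in the shared bases cannot be assigned between them. RBM24, a neighbour of GMPR that encodes an RNA-binding protein, was called with estradiol alone, as was GSAP. It had 9 and 2 counts in Dex, 57 and 54 in Dex_E2, 86 and 121 in E2, and 6 and 4 in DMSO, unlike GMPR, whose E2 and DMSO libraries overlapped.

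Relatives and partners of the 10 genes mostly did not pass the test. Where a list holds a gene of the 10, the call of that gene with dexamethasone alone follows from how it was chosen. Of all genes tested, 0.908% were called higher with dexamethasone alone and 0.239% in Dex_E2 over E2. Of 11 tested inhibitors and catalytic subunits of protein phosphatase 1 PPP1R1B alone was called with dexamethasone, and of 20 tested kinases, phosphatases and dopamine receptors linked to DARPP-32 0 were called by edgeR, DESeq2 or limma-voom, nor did any have an unadjusted p under 0.05. Among 13 tested STAC and calcium channel genes only STAC2 was called. Its relative STAC stood at 12.1 and 10.7 CPM in Dex and 12.5 and 13.3 CPM in DMSO. Of 21 purine nucleotide genes GMPR and GDA, the guanine deaminase gene, were called, GDA with 80.8 and 86.5 CPM in Dex and 46.2 and 41.8 CPM in DMSO. GMPR2, the second GMP reductase gene, was not called. Of 15 RASSF and MST kinase genes RASSF4 and RASSF2 were called, RASSF2 with 9.97 and 9.48 CPM in Dex and 3.94 and 3.89 CPM in DMSO. In Dex_E2 over E2 GDA had a log2 fold change of 0.41 ± 0.10 and RASSF2 one of 0.82 ± 0.15, and neither was called by edgeR.

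Of 6 tested neurexophilin, neurexin and neuroligin genes NXPH3 alone was called, with dexamethasone alone and in Dex_E2 over E2. NXPH3, NGFR and MICALCL were known from Dex_E2 over E2 when the genes were grouped, so their calls there are descriptions. Of 15 tested neurotrophin genes 0 were called with dexamethasone alone by any of the 3 tools, with 1 at an unadjusted p under 0.05 in edgeR, and NGFR was called in Dex_E2 over E2. Of 6 tested MICAL genes edgeR and limma-voom called 0 and DESeq2 called 1 with dexamethasone alone, 1 having an unadjusted p under 0.05 in edgeR, and MICALCL was called in Dex_E2 over E2. Of 11 tested genes of LIM-only factors and their partners 0 were called by any of the 3 tools with dexamethasone alone or in Dex_E2 over E2, and 4 and 2 had an unadjusted p under 0.05 in edgeR. By contrast 8 of 19 glucocorticoid-induced reference genes were called with dexamethasone alone and 7 in Dex_E2 over E2, against 0.908% and 0.239% of all genes tested. The rest of the 19 were not called. The median log2 fold change of the list was 0.65 with dexamethasone alone and 0.51 in Dex_E2 over E2. CRISPLD2 had the lowest values, -0.33 and -0.30, and TSC22D3 the highest, 3.23 and 2.56. TSC22D3, the gene of the leucine zipper protein GILZ, had 119 and 150 CPM in Dex, 70.0 and 63.5 in Dex_E2, 10.7 and 11.9 in E2, and 13.0 and 15.5 CPM in DMSO. These lists were drawn up with results of these data known.

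The genes whose log2 CPM over the 8 libraries was most like that of PPP1R1B, among 11938 genes above a mean log2 CPM of 1, were SCNN1A, MOAP1, ARRDC2, WDR76 and CXCR4, with Pearson r between 0.982 and 0.989. The libraries come in 4 treatments, so such an r mainly follows the order of the treatment levels. SCNN1A, which encodes a subunit of the epithelial sodium channel, had 337 and 378 CPM in Dex, 231 and 233 in Dex_E2, 97.8 and 99.4 in E2, and 89.0 and 87.0 CPM in DMSO. MOAP1 followed the same order over a narrow range, with 36.9 and 37.3 CPM in Dex, 34.4 and 34.9 in Dex_E2, 30.3 and 30.8 in E2, and 30.1 and 30.5 CPM in DMSO. Among the 10 genes themselves STAC2 was the most like PPP1R1B, with an r of 0.977, and MICALCL the least, with 0.476. MICALCL and LMO3 had an r of -0.35 with each other.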

How the data were processed

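Ishikawa cells gave 8 RNA-seq libraries, made with a stranded mRNA kit per the labels' protocols. The authors deposited whole-number counts per gene, made with HISAT2 2.0.4, Subread and featureCounts 1.5.1 on hg19, per the submitters' processing notes. They also deposited a normalised signal, in which every count of a library is divided by 1 size factor (DESeq2 1.14.1 is named in the notes), which was only checked. Neither the annotation nor the strand setting used for counting is given in the sources used here. The 2 Dex_E2 columns are both numbered 1. The column whose name fits the label of Dex_E2 replicate 1 was used as that library, and the remaining column as an unnumbered Dex_E2 library.

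All 8 libraries and 4 groups entered a single fit with edgeR 4.0.16 (TMM scaling, filterByExpr, quasi-likelihood test), with Benjamini-Hochberg adjustment over 14201 genes, 4 residual degrees of freedom and a threshold of 0.05. Log2 fold changes carry the standard error of the fit. The alternatives were DESeq2 1.42.0, limma-voom (limma 3.58.1), RLE scaling, no filter, the 4 libraries of a comparison alone, the replicate number as a block, and leaving out each library. Depth was 17846211 to 22487333 counts per library, so genes with few counts are imprecise.

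Gene order and overlaps came from GENCODE v29 and RefSeq, with shared sequence found by blastn 2.17.0. The 10 genes and all lists were chosen with earlier results of these data known. Genes named beside the 10 are called members of a list in Dex against DMSO or Dex_E2 against E2 (up to 4 per list), the 5 most like PPP1R1B, neighbours that are called or overlap, NR3C1 and ESR1. STAC, GMPR2, PGR, MAP2, CRISPLD2, TCAP, STARD3, PLXDC1 and the 3 genes between STAC2 and PPP1R1B were named after their values were seen.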

Additional observations from a re-analysis of the deposited data

Results flagged for a closer look

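PPP1R1B was singled out by a rule on the difference between its rises with dexamethasone in cells with and without estradiol, fitted across all genes. That difference passed the threshold in 3 of 14201 genes, EHF, PPP1R1B and POTEF. For a gene chosen on its level in Dex, passing is not support. The difference of the log2 fold changes was -1.64226, from 1.50 in Dex_E2 over E2 and 3.14 in Dex over DMSO. PPP1R1B was chosen for its high level in Dex, which enters this difference and leans it downward, so it is given as a description and no p-value is drawn from it. Without a single library the difference lay between -1.52 and -1.77.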

How the results depend on the processing

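No value changed its direction where it was called. Of 130 values of the 10 genes in Dex_E2 over E2 under the alternatives, 112 stayed on their side of the threshold, 12 lost and 6 gained a call. The number of the 10 called higher was 8 with RLE scaling, 9 with no filter, DESeq2, limma-voom or the 4 libraries alone, and 3 to 9 without a single library. The median share of the log2 rise kept was 73.1% to 79.0% without a single library. Over all genes, calls in Dex_E2 over E2 were 39, but 132 with no filter, 75 with DESeq2, 151 with the 4 libraries alone and 10 to 67 without a single library. For Dex over DMSO they were 137, but 253 with no filter, 65 with the 4 libraries alone and 80 to 124 without a single library. For E2 over DMSO they were 256, but 442 with no filter and 60 to 304 without a single library. For Dex_E2 over Dex they were 379, but 658 with no filter and 78 to 497 without a single library. For Dex_E2 over DMSO they were 311, and 159 to 326 without a single library. The lowest counts came without E2 replicate 1, DMSO replicate 1, E2 replicate 2, Dex_E2 replicate 1 and Dex_E2 replicate 1 again, in this order. The causes were not tested. The replicate number as a block over the 6 numbered libraries gave 232 calls for Dex over DMSO and 440 for E2 over DMSO, against 104 and 187 without the block in those libraries, a setting added after seeing the data. The deviations of same-numbered libraries had correlations of 0.046 to 0.228, not over 0.1 in every pair, so the numbers were not taken as pairing. No paired analysis was possible for Dex_E2 because 1 of its columns has no number of its own. The alternatives for Dex_E2 over Dex, for the values of single genes in E2 over DMSO and for the difference of PPP1R1B were also chosen after seeing the data. Depth limits STAC2, GMPR, RASSF4, NXPH3, NGFR, MICALCL and LMO3, which had under 40 counts in some libraries.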
